A study of Mus musculus with 10 samples.

Results

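Keratin genes were followed in RNA from subcutaneous tumours of 4T1 cells, a mouse mammary carcinoma line grown under the skin of mice. A gene was taken as a keratin where its symbol was Krt followed by digits only, which gave 50 of the 52324 genes with a symbol. Symbols that end in a letter (Krt6a, Krt6b), Krtap genes and Krtdap fall outside that rule. The 10 libraries form 5 groups of 2, all from tumours taken on day 14. The negative control received PBS, according to the design text. Free-MK1775 received the WEE1 kinase inhibitor MK1775, and Lipo-MK1775 received the same drug in a form labelled Lipo, whose make-up is not given in the sources used here. Free-MK1775+NLG919 and Lipo-MK1775+NLG received either form together with NLG919, an inhibitor of the IDO1 pathway; the design text spells out NLG919 for the last group. The sources used here do not give doses, host strain, sex or age, nor whether the 2 libraries of a group are 2 animals. The p-values below therefore measure the spread between libraries, which may be technical. The tumour cells are a single transplanted line, and the RNA is that of whole tumour pieces, with whatever host tissue they held.

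Keratins are the intermediate filament proteins of epithelial cells. A filament is built from pairs of a type I and a type II keratin, so each epithelium uses a matched pair. Simple epithelia and carcinomas that arise from them use Krt8 (type II) with Krt18 (type I), often with Krt7 (type II) and Krt19 (type I). The basal layer of the epidermis uses Krt5 (type II) with Krt14 (type I), and cells that leave that layer switch to Krt1 (type II) with Krt10 (type I). Krt16 and Krt17 (type I) are induced in wounded or hyperproliferative epidermis and are found in hair follicles, and a further set of keratins builds the inner root sheath and the shaft of the hair.

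Values are FPKM, a read density corrected for the length of each transcript and for the size of the library, summed over the transcripts of a gene, so levels can be set side by side between genes. The 50 keratins fell into 4 simple-epithelium keratins, 3 basal, 6 suprabasal and 4 activated or appendage keratins of the epidermis, 4 mucosal, 8 inner root sheath and 14 hair shaft keratins, and 7 others. Of the 50, 32 were above 0 in at least 1 library and 18 were at 0 in all 10. Tests were run on the 12814 genes that reached an FPKM of 1 in 2 or more libraries, and 14 keratins passed: 3 simple (Krt7, Krt8, Krt18), 3 basal (Krt5, Krt14, Krt15), 3 suprabasal (Krt1, Krt10, Krt77), 3 activated (Krt16, Krt17, Krt79) and 2 others (Krt20, Krt80). The 36 keratins that did not pass included every mucosal, inner root sheath and hair shaft keratin. On GRCm39, the build of the files, 25 type I keratins lie on chromosome 11 between 99123587 and 100160697, and 24 type II keratins lie on chromosome 15 between 101245325 and 101912936. Krt18 is the 1 type I keratin on chromosome 15 (101936615 to 101940462), 23.7 kb beyond the end of its partner Krt8 (101905133 to 101912936).

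The promoters of 4 keratins are shown because they stand for the 2 expression patterns described below: Krt8 and Krt18, which were present in every library, and Krt5 and Krt10, which reached high levels in some libraries only. Each is the 250 bases before the transcription start listed by RefSeq on GRCm38.p6, written 5′ to 3′ on the gene's own strand. A TATAAA motif is in capitals where it occurs. The start used for Krt10 lies 8085 bases from the 5′ end of its RefSeq gene, while those of Krt8, Krt18 and Krt5 lie at that end.
Krt8 (chr15:102004343-102004592, minus strand): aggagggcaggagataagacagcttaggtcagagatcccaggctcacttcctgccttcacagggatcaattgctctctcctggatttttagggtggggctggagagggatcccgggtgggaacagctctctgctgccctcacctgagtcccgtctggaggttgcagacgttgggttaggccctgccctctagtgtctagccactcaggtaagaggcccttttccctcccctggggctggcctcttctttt
Krt18 (chr15:102027966-102028215, plus strand): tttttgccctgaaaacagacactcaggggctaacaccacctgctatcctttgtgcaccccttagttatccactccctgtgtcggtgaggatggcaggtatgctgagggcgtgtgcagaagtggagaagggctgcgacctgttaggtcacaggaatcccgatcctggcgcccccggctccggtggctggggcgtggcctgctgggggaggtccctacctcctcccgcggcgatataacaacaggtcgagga
Krt5 (chr15:101712906-101713155, minus strand): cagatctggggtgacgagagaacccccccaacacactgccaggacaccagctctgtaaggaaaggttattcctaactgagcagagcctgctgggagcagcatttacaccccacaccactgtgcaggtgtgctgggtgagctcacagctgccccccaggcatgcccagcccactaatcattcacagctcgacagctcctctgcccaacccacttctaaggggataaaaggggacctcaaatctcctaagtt
Krt10 (chr11:99389365-99389614, minus strand): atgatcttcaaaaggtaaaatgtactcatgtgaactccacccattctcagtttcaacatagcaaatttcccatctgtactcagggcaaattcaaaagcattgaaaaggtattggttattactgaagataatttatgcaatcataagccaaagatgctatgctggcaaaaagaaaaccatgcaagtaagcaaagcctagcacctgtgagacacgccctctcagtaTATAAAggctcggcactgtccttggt
Among these 4, TATAAA on the gene's strand occurs in Krt10 alone, with its first base 26 bases before the listed start. RefSeq windows matched 9 of the 14 tested keratins, and of the 36 windows of keratin genes 14 held TATAAA, against 7.6% of all 32851 windows of that length. GGGCGG on either strand, a GC box, occurs in 2 of the 36 keratin windows and in 32.7% of all windows. TGANTCA, the AP-1 motif, occurs in 2 of 36 and in 6.7% of all. These matches describe letters in a window and are no evidence of binding.

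The libraries differed in make-up before any keratin was considered. Transcripts encoded by mitochondrial DNA took 64.1% and 56.0% of the summed FPKM in Lipo-MK1775 1 and 2 and 47.3% in Free-MK1775+NLG919 2, and between 2.88% and 4.82% in the other 7. FPKM is scaled to a library's total, which includes these transcripts. Relative depth, read from the smallest FPKM step of each library, spanned 1.96-fold. Both Lipo-MK1775 libraries had a high mitochondrial share and neither control had, so that share and the treatment cannot be told apart in comparisons with Lipo-MK1775. Negative control 1, Free-MK1775 2 and Lipo-MK1775+NLG 2 carried high levels of epidermal keratins, as described below, and in the other library of each of their groups these keratins were low or at 0.

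Krt18 and Krt8, the filament pair of simple epithelia, were present in all 10 libraries. Krt18 was the highest of the 50 keratins in each library. It was at 227 and 358 FPKM in negative control 1 and 2, at 304 and 347 in Free-MK1775 1 and 2, at 272 and 233 in Free-MK1775+NLG919 1 and 2, at 130 and 265 in Lipo-MK1775 1 and 2, and at 320 and 292 in Lipo-MK1775+NLG 1 and 2. Lipo-MK1775 1 was lowest and negative control 2 highest, and the range of the control libraries overlapped that of every treated group. Ranked among nuclear genes by FPKM, Krt18 stood between place 126 and place 183 in every library.

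Krt8 was at 166 and 241 FPKM in the control libraries, at 188 and 241 in Free-MK1775, at 189 and 90.5 in Free-MK1775+NLG919, at 60.1 and 120 in Lipo-MK1775 and at 250 and 221 in Lipo-MK1775+NLG, each in the order of the replicate numbers. The 3 lowest values were those of the 3 libraries with a high mitochondrial share. How many of all genes had that order was not counted. The ratio of Krt8 to Krt18 within a library does not depend on the library's total. It was 0.464 and 0.455 in Lipo-MK1775 1 and 2 and 0.388 in Free-MK1775+NLG919 2, and lay between 0.619 and 0.781 in the other 7. The ratio of Free-MK1775+NLG919 2 stood apart from the 0.696 of the other library of its own group, so the 3 libraries with low ratios were those with a high mitochondrial share and came from 2 treatment groups. The part of that share in the ratio was not tested. Against Vim (vimentin), the intermediate filament of mesenchymal cells, Krt8 gave ratios of 0.0865 to 0.129 in the 3 libraries and 0.113 to 0.201 in the other 7, which overlap, and Krt18 gave 0.216 to 0.284 and 0.154 to 0.258.

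When each library was rescaled to its nuclear genes, Krt18 spanned 1.52-fold from the lowest to the highest of the 10 libraries, against 2.76-fold in the deposited values. Krt8 spanned 2.38-fold after that rescaling and 4.15-fold before. On the nuclear scale Krt18 lay between 219 and 334 FPKM in the 3 libraries with a high mitochondrial share and between 223 and 334 in the other 7, so those ranges coincided. Krt8 on that scale lay between 96.9 and 152 in the 3 and between 158 and 231 in the other 7, without overlap. The share of all genes with such a gap was not counted. That rescaling did not bring the typical gene to the same level. On it, Lipo-MK1775 against the control differed by -0.62 on the log2 scale for Krt8, beside a median of -0.66 over all genes.

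Krt7, a second type II keratin of simple and glandular epithelia, was far lower than Krt8. Its FPKM was 3.72 and 7.24 in the control, 8.44 and 11.2 in Free-MK1775, 17.5 and 6.34 in Free-MK1775+NLG919, 0.789 and 7.04 in Lipo-MK1775 and 12.1 and 5.08 in Lipo-MK1775+NLG. The 22.2-fold span over the libraries was set by Lipo-MK1775 1 at the low end and Free-MK1775+NLG919 1 at the high end, and libraries of a group differed by up to several fold. Krt19, a type I keratin of ducts, stayed below the level for testing in all libraries, at 0.134 to 0.740 FPKM, and was the untested keratin with the highest single value.

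**Figure D1:**
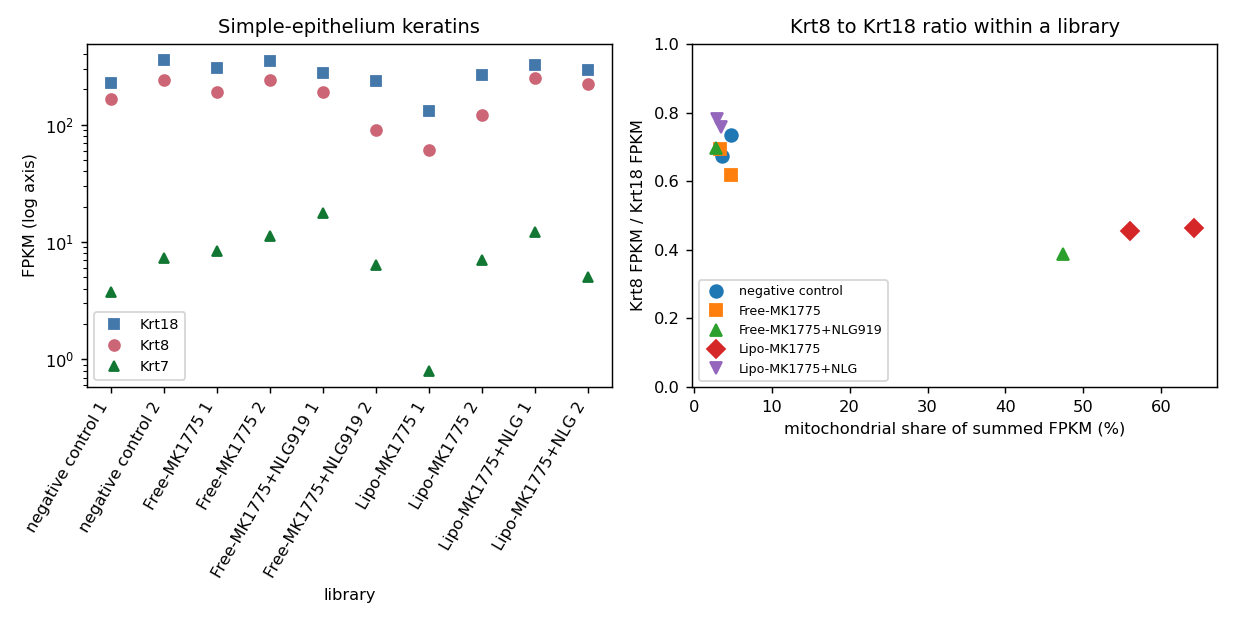
Left: FPKM of Krt18, Krt8 and Krt7 in each of the 10 libraries on a log axis. Right: the ratio of Krt8 to Krt18 FPKM in a library against the mitochondrial share of its summed FPKM, 1 point a library, coloured by group. The 3 libraries with a share of 47.3% or more have ratios of 0.388 to 0.464, and the other 7 have ratios of 0.619 to 0.781.

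The genes whose log2(FPKM + 1) followed Krt8 most closely over the 10 libraries were Tbcc (Pearson r = 0.989), a tubulin folding cofactor, Fam3c (0.986) and Lins1 (0.985). Fam3c was at 7.22, 16.6 and 11.1 FPKM in the 3 libraries with a high mitochondrial share and between 24.4 and 33.1 in the other 7. These values share their libraries and the mitochondrial part of the total with Krt8, and r is given as a description.

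The keratins of the epidermis behaved otherwise. Those of the basal layer, the layers above it and activated skin were at high levels in 3 libraries, each from a different group, and at or near 0 in the other 7. Krt14, the type I keratin of the basal layer, was at 140 FPKM in negative control 1, 19.1 in Free-MK1775 2 and 194 in Lipo-MK1775+NLG 2. It was at 0.354 in Lipo-MK1775 2 and 0.560 in Lipo-MK1775+NLG 1 and at 0 in the other 5. In Lipo-MK1775+NLG 2, Krt14 reached place 239 among nuclear genes, close to Krt8 at place 209. Its partner Krt5 was at 72.0, 14.2 and 114 FPKM in the same 3 libraries and at 0.158 or less in the other 7. Krt15, a further basal and hair follicle bulge keratin, was at 6.01, 2.44 and 4.12 in those 3 and at 0 elsewhere. In each of the 3 affected groups, 1 library was high and its replicate was at or near 0, so the libraries of a group differed more than the groups did.

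Krt1, the type II keratin of the layers above the basal one, was at 57.0 FPKM in negative control 1, 24.6 in Free-MK1775 2 and 5.19 in Lipo-MK1775+NLG 2, and at 0.0056 or less in the other 7. Its partner Krt10 was at 67.5, 40.9 and 7.54 in those libraries. Unlike Krt1, Krt10 was above 0 in every library, at 1.72 in negative control 2, 2.20 in Free-MK1775 1, 1.87 and 1.25 in Free-MK1775+NLG919 1 and 2, 0.326 and 0.721 in Lipo-MK1775 1 and 2 and 1.56 in Lipo-MK1775+NLG 1. Krt77, another type II keratin of the suprabasal and sweat duct epithelium, was at 2.51, 2.24 and 0.0479 in the 3 libraries and at 0 elsewhere.

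Krt16 was at 72.4 FPKM in negative control 1, 5.25 in Free-MK1775 2 and 26.9 in Lipo-MK1775+NLG 2, and at 0.146 or less in the other 7. Krt17 was at 51.3, 1.70 and 18.5 in the 3 libraries and at 0.279 or less elsewhere. Krt79, a keratin of the hair canal and sebaceous duct, was at 12.1, 1.07 and 2.22 and at 0.144 or less elsewhere. Krt14, Krt16 and Krt17 are close in sequence, and how the assembly split reads between them is uncertain.

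**Figure D2:**
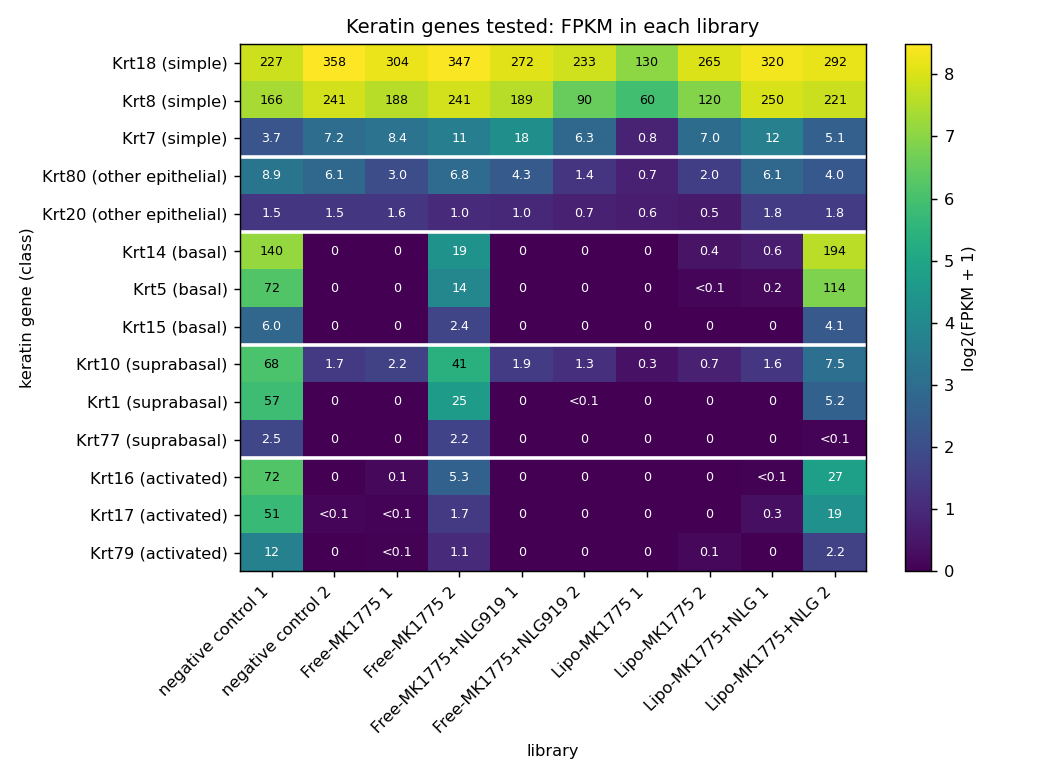
FPKM of the 14 tested keratins (rows, grouped by class) in the 10 libraries (columns). Colour gives log2(FPKM + 1) and the number in each cell is the FPKM. The 3 simple keratins are above 0 in all columns, while the 9 epidermal keratins are highest in negative control 1, Free-MK1775 2 and Lipo-MK1775+NLG 2. Krt77 is only at 0.0479 in Lipo-MK1775+NLG 2, and Krt10 reaches 2.20 in the other columns.

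Summed over the basal, suprabasal and activated classes, the epidermal keratins came to 482 FPKM in negative control 1, 112 in Free-MK1775 2 and 373 in Lipo-MK1775+NLG 2, and to between 0.326 and 2.59 in the other 7. They made up 54.1%, 15.6% and 41.5% of the FPKM of all 50 keratins in those 3 libraries, and at most 0.478% in the others. The RNA of negative control 1 thus held more FPKM of epidermal keratins than of simple keratins, which summed to 397. All 14 tested keratins reached an FPKM of 1 in that library, against 6 in negative control 2.

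**Figure D3:**
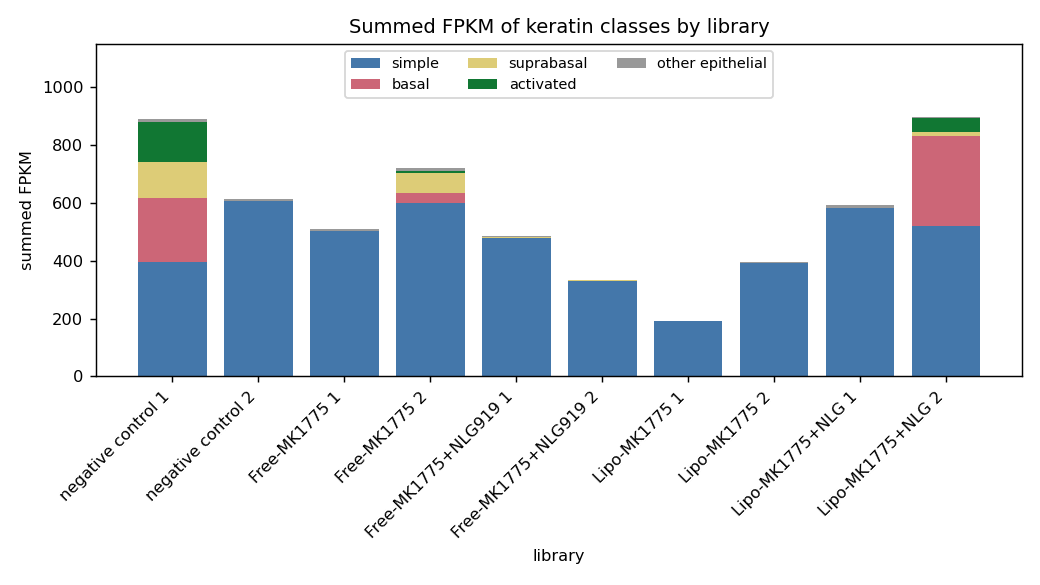
Summed FPKM of the keratin classes in each library, stacked. The simple keratins (Krt7, Krt8, Krt18, Krt19) range from 191 to 606 and are present throughout. The basal, suprabasal and activated classes add 482, 112 and 373 FPKM in 3 libraries and at most 2.59 in the others.

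The make-up of the epidermal keratins differed between the 3 libraries. In negative control 1, basal, suprabasal and activated keratins held 45.3%, 26.5% and 28.2% of the epidermal FPKM. In Free-MK1775 2 the suprabasal keratins led with 60.9%, against 31.9% basal and 7.2% activated. In Lipo-MK1775+NLG 2 the basal keratins held 83.8%, the suprabasal ones 3.4% and the activated ones 12.8%. The ratio of Krt10 to Krt14 was 0.481, 2.14 and 0.0389 in the 3 libraries in that order, and the ratio of Krt1 to Krt5 was 0.792, 1.73 and 0.0453. Ratios within a filament pair varied less. Krt5 stood at 0.513, 0.746 and 0.590 of Krt14, and Krt1 at 0.844, 0.602 and 0.688 of Krt10. Each of these libraries is a single one, so the differences in make-up carry no test.

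**Figure D4:**
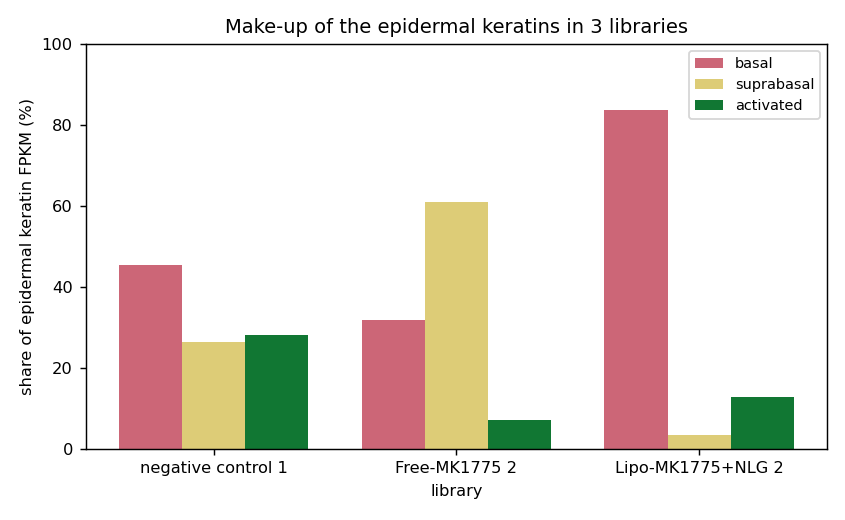
Share of the summed FPKM of the epidermal keratins held by the basal, suprabasal and activated classes in the 3 libraries that carry them. Basal keratins range from 31.9% to 83.8% and suprabasal keratins from 3.4% to 60.9%.

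Krt6a and Krt6b, the type II partners of Krt16 and Krt17, fall outside the rule because of the letter in their names. They were at 50.3 and 59.6 FPKM in negative control 1, 3.03 and 5.07 in Free-MK1775 2 and 36.7 and 24.8 in Lipo-MK1775+NLG 2, and at 0.393 or less elsewhere; they are near-identical copies, so the split between them is uncertain. Without them, the type II keratins outside the simple class held 0.450, 0.701 and 0.498 of the FPKM of their type I counterparts in the 3 libraries, and with them 0.774, 0.816 and 0.741.

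Other genes of the epidermis stood high in the same libraries. Of 12 tested non-keratin genes of the epidermis, 10 were higher in each of the 3 libraries than in any of the other 7. The exceptions were Lgals7 and Tgm1. Over all 12814 genes tested, 1.87% had that pattern. Most of the 10 reached the level for testing through the 3 libraries themselves, so the count is a description and supports nothing. Krtdap, a keratinocyte differentiation protein, was at 78.4, 14.2 and 25.7 FPKM in the 3 libraries and at 0.120 or less in the others. Lgals7, a galectin of stratified epithelia, was at 125, 48.0 and 202 FPKM, but also at 84.6 in Free-MK1775+NLG919 2 and at 22.2 to 47.1 in the other 6. The whole list of 15 genes summed to 376, 101 and 294 FPKM in the 3 libraries and to between 25.4 and 87.0 in the other 7, with Ivl, Flg, Dsg1a and Tgm3 at 0 in all 7.

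Genes of a joint list of keratin linkers and desmosome proteins split. Dsp, Pkp1, Dsg3, Dsc3 and Evpl, 5 of the 12 tested, were higher in each of the 3 libraries than in any of the other 7. Over all genes tested, 1.87% had that pattern. Dsp, Pkp1, Dsg3 and Dsc3 reached the level for testing through the 3 libraries themselves, so the count is a description. Evpl was near a tie, with 1.61 as the lowest of the 3 and 1.59 as the highest of the other 7. Desmoplakin (Dsp) was at 9.12, 1.68 and 3.17 FPKM in the 3 libraries and at 0.138 or less in the others. Plec and Dst, the linker proteins with the highest mean level of the list, did not have that pattern. Plec was at 28.4 and 24.8 FPKM in the control libraries and at 1.36 and 2.73 in Lipo-MK1775. The genes most like Krt14 over the 10 libraries were Krt5 (r = 0.999), Perp (0.991), a desmosome-associated membrane protein, and S100a14 (0.988), again as a description of the 3 libraries.

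Markers of carcinoma epithelium were checked against the label of the samples as 4T1 cancer cells. Krt8 and Krt18 were high throughout, and Spint1 and Cldn3, a protease inhibitor and a tight junction protein of epithelia, were at 8.08 to 32.4 and 1.98 to 19.8 FPKM. Epcam, a defining marker of epithelial cells, was low and did not follow Krt8. It was at 3.82, 1.12 and 2.21 FPKM in the 3 libraries with epidermal keratins, at 0 in Free-MK1775 1 and Lipo-MK1775 2 and at 0.433 or less in the other 5. Cdh1, the epithelial cadherin, lay between 0.184 and 4.14, and Vim between 601 and 1576.

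No tested marker of fibroblasts, macrophages, neutrophils, skeletal muscle or mesothelium was higher in each of the 3 libraries than in all of the other 7. Only 1.87% of all genes tested had that pattern, so its absence from these few markers is no result about these cell types. Col3a1 and Col1a1 of fibroblasts ranged from 12.3 to 61.8 and from 11.4 to 47.6 FPKM, Lyz2 and C1qa of macrophages from 241 to 1079 and from 170 to 623, S100a9 and S100a8 of neutrophils from 68.8 to 416 and from 40.2 to 303, and Msln and Wt1 of mesothelium from 8.77 to 47.1 and from 0 to 2.88. Skeletal muscle genes moved in part with the epidermal keratins. Acta1 was at 54.5 and 12.5 FPKM in negative control 1 and 2, at 7.49 and 93.6 in Free-MK1775 and at 34.6 and 26.4 in Lipo-MK1775+NLG, so the library with epidermal keratins was the higher one in the first 2 of these groups and the lower one in the last. Tnnt3 was at 15.3 and 5.69, at 4.75 and 25.8 and at 14.3 and 11.8 FPKM in the same order. Both were highest in Free-MK1775+NLG919 1, at 94.8 and 38.1 FPKM, where the epidermal keratins were near 0. In bulk RNA, more cells of a type and more RNA per cell cannot be told apart, and whether skin entered the 3 samples was not tested.

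Hair keratins were all but absent. The 8 inner root sheath and 14 hair shaft keratins together came to at most 0.173 FPKM in any library, in Free-MK1775+NLG919 2, and to 0.0168, 0.0618 and 0.135 in the 3 libraries with epidermal keratins. Of the hair shaft keratins 6 were above 0 in some library, and of the inner root sheath keratins 2 were. Hair follicle genes other than keratins did not stand out: Padi3 lay between 0.320 and 3.38 FPKM, S100a3 at 0.792 or less, and Tchh, the trichohyalin of the inner root sheath, at 0.0864 or less. The 4 mucosal keratins summed to at most 0.308 FPKM in a library.

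Krt80 and Krt20 were low and present in all libraries. Krt80, a type II keratin found broadly in epithelia, was at 8.90 and 6.05 FPKM in the control libraries, 3.02 and 6.76 in Free-MK1775, 4.31 and 1.43 in Free-MK1775+NLG919, 0.725 and 1.96 in Lipo-MK1775 and 6.10 and 4.00 in Lipo-MK1775+NLG. Krt20, a type I keratin of intestinal and urothelial cells, was at 1.54 and 1.55 in the control, 1.56 and 0.996 in Free-MK1775, 0.974 and 0.714 in Free-MK1775+NLG919, 0.557 and 0.536 in Lipo-MK1775 and 1.81 and 1.83 in Lipo-MK1775+NLG. Both were lowest in the 3 libraries with a high mitochondrial share, and the share of all genes with that pattern was not counted. On the nuclear scale Krt80 lay at 1.23 to 2.48 FPKM in the 3 and at 2.63 to 8.75 in the other 7. Krt20 lay at 0.678 to 0.942 and at 0.811 to 1.67, which overlap.

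The treatments were then compared on log2(FPKM + 1) with limma's moderated test in a single fit of all 10 libraries, two-sided. The word called is used for a gene whose p-value, adjusted by the Benjamini-Hochberg method across all 12814 genes, was under 0.05. The 4 comparisons with the control share its 2 libraries, of which 1 carried epidermal keratins. For Krt14 the standard error of a log2 change was 2.02, against 0.37 for Krt18 and 0.42 for Krt8.

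Free-MK1775 against the control gave no called keratin of 14, and 0.0078% of all genes were called. No keratin had an unadjusted p under 0.05, while 110 genes in all had. Krt18 differed by 0.19 (SE 0.37), Krt8 by 0.09 (SE 0.42) and Krt7 by 0.79 (SE 0.62), each with an adjusted p of 1. Krt7 was higher in both treated libraries than in either control, at 8.44 and 11.2 against 3.72 and 7.24 FPKM. How many of all genes had such a gap in this comparison was not counted, so the gap is a description. The smallest unadjusted p of each other class belonged to Krt17 (log2 difference -2.17, SE 1.31), Krt80 (-0.58, SE 0.45), Krt14 (-1.41, SE 2.02) and Krt1 (-0.59, SE 1.48), all with adjusted p of 1. The differences of Krt17, Krt14 and Krt1 changed sign when negative control 1 was left out, to 0.62, 2.16 and 2.34. Leaving out negative control 2 gave 3 called keratins among 26 called genes; with 1 library left in a group, that library is assumed to vary like the other groups.

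Free-MK1775+NLG919 against the control also gave no called keratin, against 0.421% of all genes. Of all 12814 genes, 2616 had an unadjusted p under 0.05, and 3 of the 14 keratins had. These were Krt80 (log2 difference -1.22, SE 0.45, adjusted p = 0.185), Krt79 (-1.86, SE 0.82, adjusted p = 0.228) and Krt17, which is named after its values were seen. Krt8 differed by -0.61 (SE 0.42, adjusted p = 0.391), Krt18 by -0.18 (SE 0.37, adjusted p = 0.794) and Krt7 by 0.90 (SE 0.62, adjusted p = 0.388). Krt10 and Krt15 had the smallest p of the suprabasal and basal classes, with -2.42 (SE 1.18, adjusted p = 0.258) and -1.40 (SE 0.79, adjusted p = 0.310). Without negative control 2, 8 keratins were among 100 called genes, and 7 were among 125 when the fit held only the groups compared. Without Free-MK1775+NLG919 1, which leaves the library with a high mitochondrial share, 2 keratins were among 7874 called genes of 12814.

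Lipo-MK1775 against the control called 4 of the 14 keratins, all lower, where 66.4% of all genes were called and 65.2% were called lower. Krt80 fell by 1.89 on the log2 scale (SE 0.45, adjusted p = 0.00498) and Krt8 fell by 1.22 (SE 0.42, adjusted p = 0.0212). Krt10 fell by 3.18 (SE 1.18, adjusted p = 0.0297) and Krt20 fell by 0.72 (SE 0.29, adjusted p = 0.0397). The control libraries of these 4 genes lay above both Lipo-MK1775 libraries. So did those of Krt17, which made 5 of 14 without overlap, against 89.5% of all genes. The share of keratins called was thus below the share of all genes. The median over all genes was -1.08 and that over the 14 keratins -1.82. Without negative control 1, which carried epidermal keratins, the median was -1.09 over all genes and -0.065 over the 14 keratins. The lower median of the keratins thus rested on that library. Relative to the median of all genes in the fit of all 10 libraries, Krt8 differed by -0.14, Krt80 by -0.80, Krt20 by 0.37 and Krt10 by -2.09.

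Krt18 was not called in that comparison. It differed by -0.62 (SE 0.37, adjusted p = 0.149), which is 0.47 above the median of all genes, and Krt7 differed by -0.72 (SE 0.62, adjusted p = 0.300). Krt17 and Krt15 had the smallest p of their classes, at -2.92 (SE 1.31, adjusted p = 0.0597) and -1.40 (SE 0.79, adjusted p = 0.123). Over all genes, 154 were called higher and 8360 lower, against 1289 and 1212 with median-of-ratios scaling, 1029 and 1155 with quantile scaling and 405 and 5155 with scaling to nuclear genes. With the first of these scalings no keratin was called and Krt8 turned to 0.18. With quantile scaling no keratin was called, and with nuclear scaling Krt80 alone was (-1.53, SE 0.43, adjusted p = 0.0226). Leaving out a library moved the calls over all genes too. Without Lipo-MK1775 1 no keratin was called, and 1 gene in all was. Without negative control 1 there were 2 keratins among 3883 called genes, and without negative control 2 there were 10 among 4157. Without Lipo-MK1775+NLG 1 or 2 there were 10 among 7494 and 7469. Krt10 differed by -0.85 (SE 0.86, adjusted p = 0.395) without negative control 1.

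Lipo-MK1775+NLG against the control gave no called keratin, against 0.0156% of all genes, and no keratin had an unadjusted p under 0.05 where 184 genes had. Krt8 differed by 0.23 (SE 0.42), Krt18 by 0.10 (SE 0.37) and Krt7 by 0.52 (SE 0.62), all with an adjusted p of 1. The smallest p of each other class belonged to Krt77 (log2 difference -0.87, SE 0.52), Krt79 (-1.01, SE 0.82), Krt80 (-0.49, SE 0.45) and Krt15 (-0.23, SE 0.79), also with an adjusted p of 1. Each of these groups held 1 library with epidermal keratins, so the groups overlapped for all 9 epidermal keratins. Leaving out negative control 2 gave 1 called keratin among 26 called genes.

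**Figure D5:**
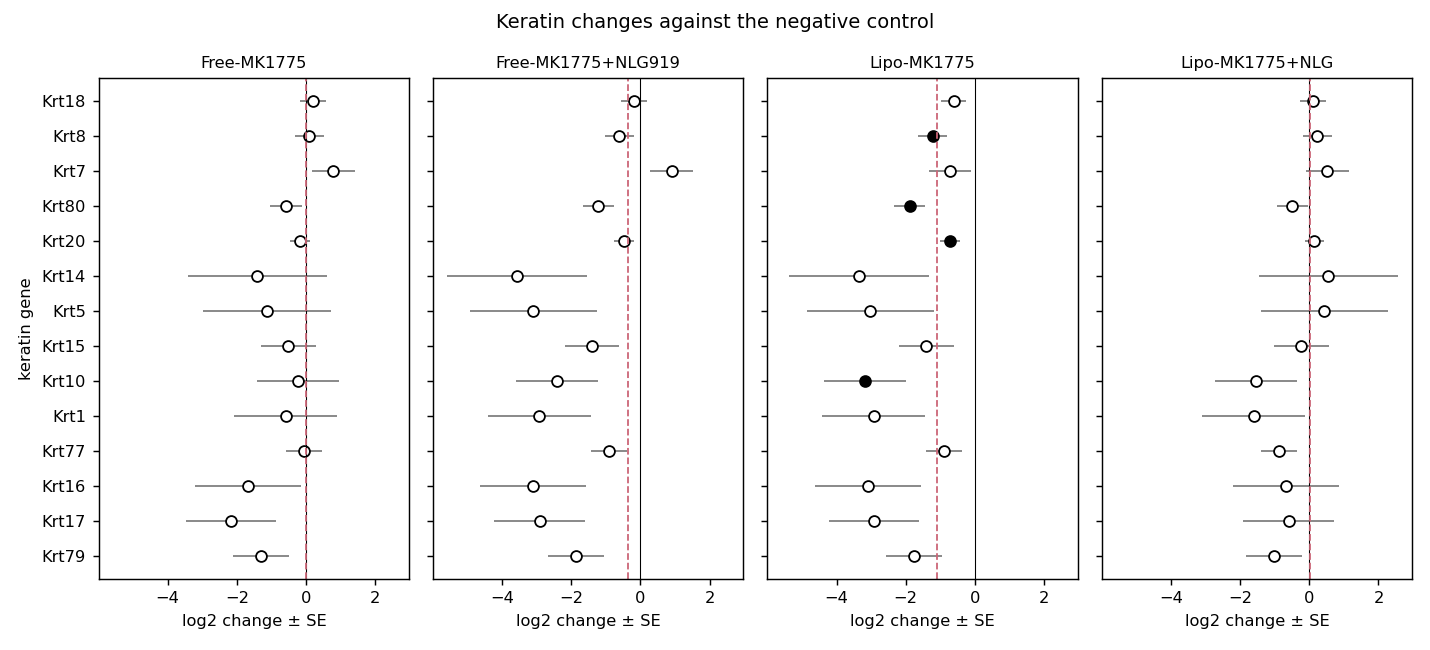
Log2 change of FPKM + 1 for the 14 tested keratins in the 4 comparisons with the negative control; bars are 1 standard error of the limma fit. Filled points are genes called at an adjusted p under 0.05, which are 4 in Lipo-MK1775 and none elsewhere. The dashed line is the median over all 12814 genes, which lies at -1.08 for Lipo-MK1775.

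The 2 forms of the drug were compared without and with NLG919. Lipo-MK1775 against Free-MK1775 called 4 keratins, all lower, where 68.3% of all genes were called and 67.3% were called lower. Krt8 fell by 1.31 (SE 0.42, adjusted p = 0.0165) and Krt80 fell by 1.31 (SE 0.45, adjusted p = 0.0220). Krt10 fell by 2.94 (SE 1.18, adjusted p = 0.0396) and Krt7 fell by 1.50 (SE 0.62, adjusted p = 0.0433), beside a median of -1.07 over all genes. None was called with median-of-ratios, quantile or nuclear scaling, with which 453, 349 and 260 genes of the whole table were called higher and 356, 344 and 3005 lower, against 138 and 8618. Krt8 turned to 0.074 with median-of-ratios scaling. None was called without Free-MK1775 2 or without Lipo-MK1775 1 either, where 182 and 3 genes in all were called. Lipo-MK1775+NLG against Free-MK1775+NLG919 called no keratin, where 0.0078% of all genes were called. In it 1 keratin, Krt20, named after its values were seen, had an unadjusted p under 0.05, where 1428 of all genes had.

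The addition of NLG919 was compared within each form. Free-MK1775+NLG919 against Free-MK1775 called no keratin, against 0.0078% of all genes; none had an unadjusted p under 0.05 where 1164 genes had, and 2 were called without Free-MK1775+NLG919 1, among 7796 called genes. Lipo-MK1775+NLG against Lipo-MK1775 called 3 keratins, all higher, where 72.3% of all genes were called and 71.1% were called higher. Krt8 rose by 1.45 (SE 0.42, adjusted p = 0.0103), Krt80 by 1.40 (SE 0.45, adjusted p = 0.0153) and Krt20 by 0.87 (SE 0.29, adjusted p = 0.0173), beside a median of 1.12 over all genes. None was called with median-of-ratios, quantile or nuclear scaling, with which 293, 274 and 3852 genes were called higher and 403, 293 and 283 lower, against 9109 and 152. Without Lipo-MK1775 1 none was called, among 4 genes in all, and without either control library 8 were, among 8350 and 8381. The same Lipo-MK1775 libraries serve in this comparison and in those above.

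The difference between the forms in the effect of NLG919, the interaction term of the same fit, was called for 3 keratins, all higher, where 63.7% of all genes were called and 62.3% were called higher. The term was 2.15 for Krt8 (SE 0.59, adjusted p = 0.0100), 2.04 for Krt80 (SE 0.64, adjusted p = 0.0155) and 1.16 for Krt20 (SE 0.41, adjusted p = 0.0239), beside a median of 1.48 over all genes. The groups it compares hold all 3 libraries with a high mitochondrial share. No keratin was called with median-of-ratios or quantile scaling, with which 509 and 571 genes of the whole table were called higher and 707 and 542 lower, and Krt8 alone was with nuclear scaling (1.42, SE 0.44, adjusted p = 0.0314; 5516 and 393 genes), against 7987 and 177. Without Lipo-MK1775 1 no keratin was among 2688 called genes, without Lipo-MK1775 2 there were 5 among 7713, and without Free-MK1775+NLG919 2 there were 2 among 8080. Without Free-MK1775 1 or Lipo-MK1775+NLG 1 there were 8, among 5526 and 4739, and without either control library there were 10, among 7235 and 7234.

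In Lipo-MK1775 against the control, no list of related genes described here had a gene called higher. Of the keratin linker and desmosome genes 6 of 12 tested fell against the control and none rose, with a median of -1.48. The smallest p-values were those of Dst (-2.70, SE 0.43, adjusted p = 0.00251) and Plec (-3.21, SE 0.52, adjusted p = 0.00251). Of the other intermediate filament genes 6 of 7 fell, with a median of -1.56. Among them, Nes differed by -2.05 (SE 0.46, adjusted p = 0.00434) and Lmnb1 by -1.80 (SE 0.47, adjusted p = 0.00690), and Vim was called lower as well (adjusted p = 0.0123). Of the carcinoma epithelium genes 7 of 8 fell, with Cldn4 at -1.60 (SE 0.37, adjusted p = 0.00467) and Cldn3 at -1.89 (SE 0.45, adjusted p = 0.00503). Of 12 tested epidermis genes 3 fell, Cdsn (-1.76, SE 0.63, adjusted p = 0.0250) and Sfn (-2.67, SE 1.11, adjusted p = 0.0457) with the smallest p. These counts stand beside the 65.2% of all genes called lower. The control libraries differed widely for the 2 named epidermis genes. Sfn was at 29.8 FPKM in negative control 1, which carried epidermal keratins, and at 0.602 in negative control 2. Cdsn was at 9.29 and 0.406 in the same order. In Lipo-MK1775 1 and 2, Sfn was at 0.113 and 0.0964 and Cdsn at 0.0715 and 0.170. In Free-MK1775+NLG919 the 1 gene of the carcinoma, epidermis, linker and filament lists called against the control was Cdh1 (-1.65, SE 0.34, adjusted p = 0.0480), and in Free-MK1775 and Lipo-MK1775+NLG no gene of these 4 lists was called.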

How the data were processed

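RNA of 10 subcutaneous 4T1 tumour libraries (5 groups of 2, from the labels' treatment) was analysed. Per the submitters' processing notes, the authors used FastQC, Trim Galore, HISAT2 and StringTie on GRCm39, with no versions stated. The deposited values are FPKM per transcript, computed by the authors with mitochondrial transcripts in the total; the sources used here give neither read counts nor strand settings, so depth is known only in relative terms and reads of overlapping genes cannot be told apart. Here the 161762 transcripts were summed by symbol. Of the 21051 without a symbol, 14868 assembled transcripts took the symbol that overlapped them most within their locus (2 of them to keratins, Krt8 and Krt80) and 6183 were left out.

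Genes that reached an FPKM of 1 in 2 or more libraries were fitted as log2(FPKM + 1) with limma 3.58.1 (R 4.3.3), with 1 mean for each group and a trend on the variance. Fold changes on this scale understate the change of low genes. The step was tested on simulated data. The tested simple keratins, Krt7, Krt8 and Krt18, were named in every comparison with the control; other tested keratins were named with a change where called or where their p was the smallest of their class; from each gene list the 2 most abundant members and up to 2 called members were named. The keratins, their classes, the gene lists and the tests were chosen with earlier results of these data known. Alternatives changed the pseudocount, the filter, the way libraries were scaled, how transcripts were summed, the variance trend, a block for the replicate number, the groups in the fit and the libraries in it. The fit without the 3 libraries that carry epidermal keratins was added after seeing the data. Sequences are from RefSeq on GRCm38.p6 and were matched by symbol.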

Additional observations from a re-analysis of the deposited data

Results flagged for a closer look

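The effect of NLG919 differed between the forms of MK1775 for 3 keratins, by the interaction term of the limma fit. The term was 2.15 for Krt8, 2.04 for Krt80 and 1.16 for Krt20 on the log2 scale. Krt8 was at 188 and 241 FPKM in Free-MK1775 and at 189 and 90.5 with NLG919, and at 60.1 and 120 in Lipo-MK1775 and at 250 and 221 with NLG919. Of all genes tested, 63.7% were called for this term, with a median of 1.48, and 3 of 14 keratins were. With median-of-ratios scaling no keratin was called, and the term was 0.24 for Krt8, 0.75 for Krt80 and 0.20 for Krt20. The mitochondrial share was 64.1%, 56.0% and 47.3% in 3 of the 8 libraries and between 2.88% and 4.82% in the other 5, and its part in the term was not tested.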

How the results depend on the processing

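Across 22 alternative settings, 661 of the values for 39 named pairs of keratin and comparison kept their direction and side of the threshold, 121 lost the call, 19 gained one and 30 changed sign. Changing the filter, the replicate block, the variance trend or the groups in the fit cannot alter a log2 change. Nor can leaving out a library of a group outside the comparison. Many of the 661 thus had a fixed direction, and a change of exactly 0 was counted as kept. For Lipo-MK1775 against the control (4 called) the number was 1 without a filter and 2 with symbol transcripts only, among 6337 and 5955 genes. It was 0 with median-of-ratios scaling, 0 with quantile scaling and 1 with nuclear scaling, with the counts over all genes given above. For Lipo-MK1775 against Free-MK1775 (4 called) it was 0 without a filter, 0 with each of those 3 scalings and 1 with symbol transcripts only. Over all genes 4315 were called without a filter and 5965 with symbol transcripts only. For Lipo-MK1775+NLG against Lipo-MK1775 (3 called) it was 1 without a filter, among 6271 genes, and 0 with each scaling. For the interaction (3 called) it was 0, 0 and 1 with the 3 scalings. It was 5 with a pseudocount of 0.1 (8292 genes in all), 0 without a filter (3444) and 10 with only the groups compared (7250). A fit of only the groups compared called 7 for Free-MK1775+NLG919 against the control and 3 against Free-MK1775, among 125 and 25 called genes. The fit without the 3 libraries that carry epidermal keratins leaves 1 library in each of their groups, so only its log2 changes are given. For Lipo-MK1775 against the control these were -1.49 for Krt8, -1.64 for Krt80, -0.85 for Krt10 and -0.72 for Krt20. The median over all genes was -1.09.

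With each library left out in turn, the number of keratins called changed in every comparison, and so did the number over all genes. Such a fit leaves 1 library in a group, so these counts are not read as results about the keratins.

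Signs changed as follows; the cause was not tested. With median-of-ratios scaling, Krt18 was at 0.31 in Free-MK1775+NLG919 and 0.80 in Lipo-MK1775 against the control, Krt7 at 0.31 and Krt8 at 0.18 in Lipo-MK1775 against the control, and Krt8 at 0.074 against Free-MK1775. With quantile scaling, Krt8 was at -0.018 in Free-MK1775, Krt20 at 0.064 and Krt7 at 0.37 in Lipo-MK1775, and Krt18 at -0.028 in Lipo-MK1775+NLG, each against the control. Without the 3 libraries with epidermal keratins, Krt18 was at -0.23 and Krt8 at -0.35 in Free-MK1775, and Krt18 at -0.16 and Krt80 at 0.0090 in Lipo-MK1775+NLG. With a library left out, the log2 change against the control ranged in Free-MK1775 from -3.52 to 2.34 for Krt1, -4.98 to 2.16 for Krt14, -4.96 to 0.62 for Krt17, -0.14 to 0.52 for Krt18 and -0.17 to 0.35 for Krt8; in Free-MK1775+NLG919 from -0.50 to 0.15 for Krt18; in Lipo-MK1775 from -1.80 to 0.37 for Krt7; and in Lipo-MK1775+NLG from -1.63 to 1.18 for Krt15, -0.23 to 0.43 for Krt18, -0.037 to 1.07 for Krt7, -1.78 to 0.034 for Krt77, -2.87 to 0.84 for Krt79 and -0.034 to 0.50 for Krt8. Scaling moved the median of all genes in Lipo-MK1775 against the control from -1.08 to -0.04 (median-of-ratios), -0.06 (quantile) and -0.66 (nuclear).

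Whether the replicate numbers pair the samples is not known from the labels. Same-numbered libraries of 2 groups had deviations correlated at -0.35 to 0.06. With 2 libraries a group the 2 deviations mirror each other, so these correlations cannot decide it. With the replicate block, 6 keratins were called for the interaction, among 7631 called genes, and the number called in the other 8 comparisons stayed within 1.5 times. Only 2 libraries a group, 1 of them high in epidermal keratins in 3 groups, limit what could be called for those keratins.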
